A study of Homo sapiens with 2 samples.

Results

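The amino acid response driven by ATF4 was described through 10 genes: ATF4, DDIT3, TRIB3, CHAC1, ASNS, PSAT1, PHGDH, SLC7A11, SLC3A2 and SLC7A5. All probe sets that the platform annotation gives to a single one of these symbols were taken. This gave 32 probe sets of the 49386 on the array, and no probe set annotated to several genes named a member. Of the 32, 31 passed the filter on dim values, which keeps a probe set with a value at or above the median of either array. The study used GFP-SAS, a tongue squamous cell carcinoma line that carries green fluorescent protein. One group of GFP-SAS cells received an antisense strand of LNA and DNA that binds miR-361-3p, and the control group a non-target (NT) strand of the same chemistry. The dose was 25 nM and the time 24 h in both groups, with 1 Affymetrix 3' expression array per group, made from 10 ng of total RNA. With a single array on each side, the differences below have no replicate check and carry no p-value. The labels do not say how many cultures stand behind an array.

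ATF4 is a basic leucine zipper transcription factor at the centre of the integrated stress response. Kinases that sense missing amino acids, misfolded protein, haem shortage or double-stranded RNA phosphorylate the initiation factor eIF2, which slows general translation and at the same time favours translation of ATF4 mRNA. ATF4 then binds C/EBP-ATF response elements, usually as a dimer with a C/EBP protein, and switches on amino acid transporters, synthesis enzymes and stress regulators. In carcinoma cells the same genes serve to import cystine and to make serine and asparagine.

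The oligonucleotide's target is shown first, with its seed (bases 2 to 8) in capitals, since the seed is the stretch through which a microRNA recognises its targets. Both arms of the hairpin are given, as the arms have different seeds and the treatment was directed at the 3p arm. The sequences are RefSeq's, on GRCh38.p14, and the 3p arm lies at chrX:85903641-85903663 on the minus strand.
hsa-miR-361-3p: uCCCCCAGgugugauucugauuu
hsa-miR-361-5p: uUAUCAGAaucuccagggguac
Whether member transcripts hold a match to this seed was not analysed here.

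Promoter windows of 300 bases, from 250 before to 50 after the gene start, were matched by symbol for 9 members in RefSeq's GRCh38.p14 annotation, the exception being SLC7A11. The C/EBP-ATF response element was searched as TGATGNAA on both strands. It was found in 3 of the 9 windows, those of CHAC1, ASNS and SLC3A2, and in 3.67% of 27305 windows of the same length. The match in CHAC1 begins 209 bases before the gene start and that in ASNS begins 68 bases before it. These stretches are shown because the element is what ATF4 binds, with the 8 matched letters in capitals, and both read 5' to 3' along the gene's own strand. The CHAC1 stretch is chr15:40953251-40953280 on the plus strand, with the element in reverse, and the ASNS stretch is chr7:97872458-97872487 on the minus strand, with the element forward.
CHAC1: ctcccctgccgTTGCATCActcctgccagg
ASNS: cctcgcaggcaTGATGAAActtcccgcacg
The match in SLC3A2 (TTACATCA) begins 37 bases after the gene start. A match is a description of the letters, and its absence from the other 6 windows says nothing about binding elsewhere.

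Values are on the log2 scale, and a difference is anti-miR minus control. A gene's value is the mean over its retained probe sets, and the SD given is the spread over those probe sets within these arrays. Pooled over all genes with at least 2 retained probe sets, that SD was 0.29. The nonspecific control probe sets, 23 in number and grouped by GC class, reached 7.16 with the anti-miR and 6.87 in the control. A value below these is not shown to be above background. These maxima come from the 11 sets of GC class 15 and above, as the 12 below class 15 reached 2.62 and 2.52. Gene probe sets were not matched to them by GC class, so a value within this range is not shown to be background either. Of the 32 member probe sets, 19 lay above that range on both arrays. The poly-A controls, spiked in ahead of labelling, differed by 0.32 ± 0.19 (SD over 12 probe sets). Among the listed keratin and epithelial markers, KRT5, KRT8, KRT18, CDH1, EPCAM and SFN lay above the nonspecific range on both arrays by their retained probe sets. With dim probe sets kept, 5 markers of this list did. KRT14 was below the median on both, and KRT6A, KRT17 and TP63 had no probe set of their own in the annotation used. Of 12 markers of leukocytes, endothelium, fibroblasts and muscle, 0 lay above that range on both arrays. In RNA from whole cultures, a change in the share of cells and a change in RNA per cell cannot be told apart.

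Of the 10 members, ATF4 and DDIT3 were higher with the anti-miR by 1.5-fold or more, SLC7A11 was at least 1.5-fold lower, and 7 lay within 1.5-fold. Among all 11272 genes, 8.23% were at least 1.5-fold higher and 14.2% at least 1.5-fold lower, so 2 and 1 of 10 are counts too small to set apart from this background. The members' median difference was 0.05, against 0.13 for all genes. Once that median gene was subtracted, ATF4 differed by 0.74, DDIT3 by 1.01 and SLC7A11 by -1.59, all still past 1.5-fold. The same subtraction turned the whole array's split from 928 higher and 1602 lower genes to 499 higher and 1951 lower.

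**Figure D1:**
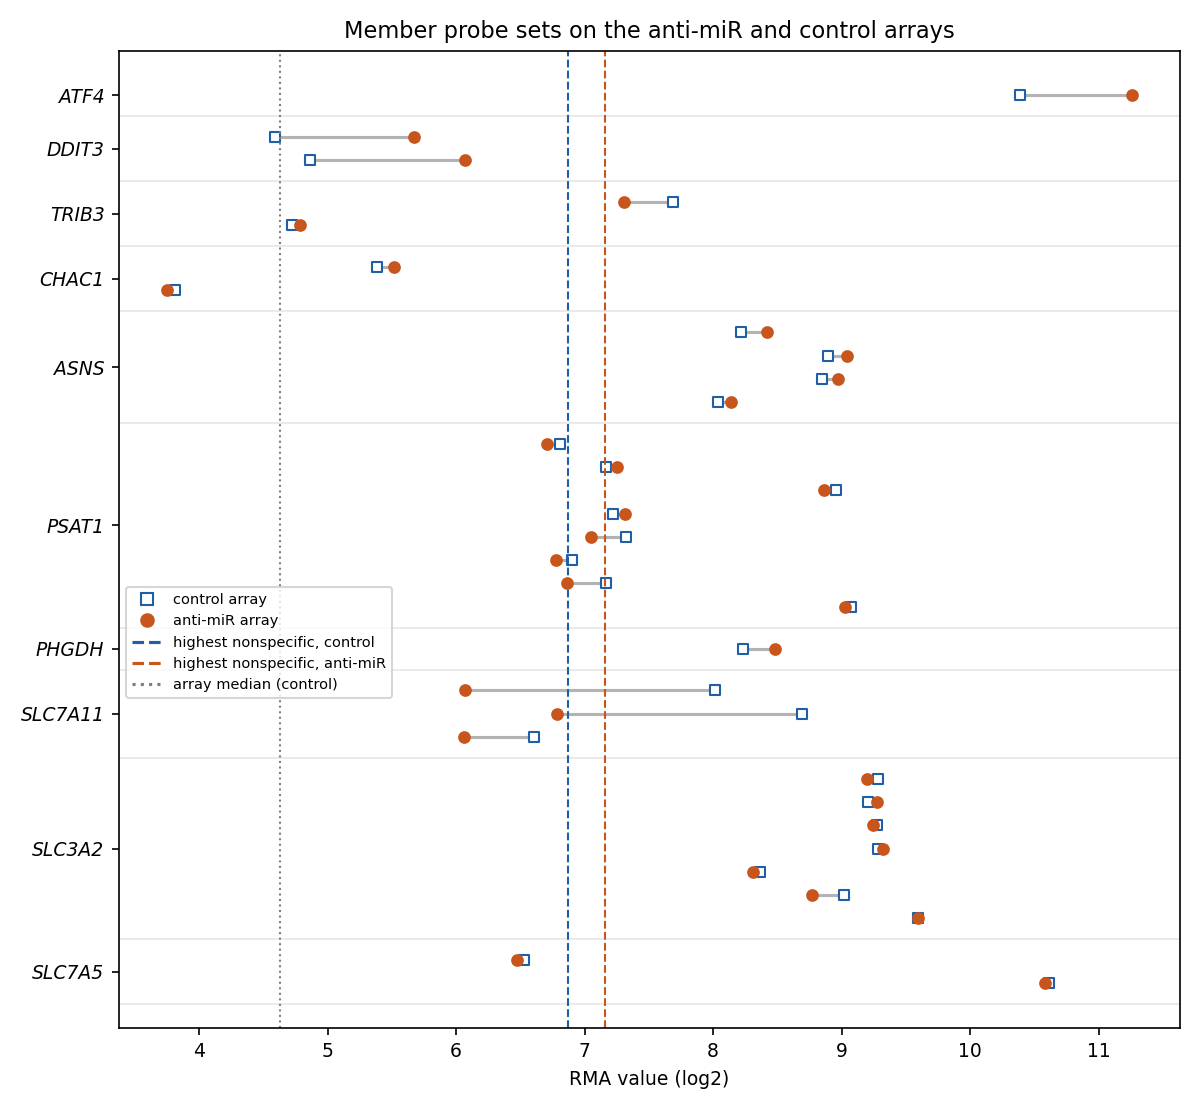
RMA values (log2) of the 32 member probe sets, 1 row per probe set, in the control (open squares) and the anti-miR array (filled circles). Dashed lines mark the highest nonspecific control on each array (6.87 and 7.16) and the dotted line the control array's median (4.63). ATF4 moves right at a high level, and both DDIT3 probe sets move right within the nonspecific range. The brighter SLC7A11 probe sets move left into that range, and the dimmest moves left within it.

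ATF4 itself was measured by 1 probe set, which read 11.26 with the anti-miR and 10.39 in the control. The difference of 0.87 is 1.83-fold, and ATF4 ranked 246 of 11272 genes by increase. Both values lay far above the nonspecific range. Of 404 genes with a control value of at least 10, a level chosen after the value of ATF4 was seen, 4 (0.99%) were at least 1.5-fold higher. ATF4 is itself 1 of them, and the others were BUD31 (0.66), DNAJC9 (0.60) and NOP56 (0.61). Of the 271 genes within 0.5 of the control value of ATF4, 0 had a larger increase. Such a window matches genes on the control value alone. The same window around SLC7A11 held 1593 genes, of which 5.40% had a lower difference. The ATF4 probe set is of the x_at type, a design whose probes can also match other transcripts, and the RefSeq table lists 4 ATF4 pseudogenes. Signal from such copies could not be separated from that of ATF4 here. Among all retained x_at probe sets 8.22% were at least 1.5-fold higher.

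DDIT3 encodes CHOP, a transcription factor that ATF4 induces and that promotes death under lasting stress. Its first probe set read 5.67 with the anti-miR and 4.59 in the control, and its second read 6.07 and 4.87. Both differed in the same direction, by 1.08 and 1.20. The gene mean differed by 1.14 ± 0.08 (SD over 2 probe sets), or 2.21-fold. All 4 values lay within the nonspecific range, and the first probe set was below the array's median of 4.63 in the control and was retained through its anti-miR value. The fold of DDIT3 is therefore not an exact size, and its place among genes or members is not given.

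TRIB3 is a pseudokinase that CHOP and ATF4 induce and that feeds back on both. Its brighter probe set read 7.31 with the anti-miR and 7.68 in the control, and its dimmer one read 4.79 and 4.72. Only the brighter probe set was above the nonspecific range, and it was 1.30-fold lower. The gene mean differed by -0.16 ± 0.31 (SD over 2 probe sets), a difference smaller than the spread between its probe sets. TRIB3 thus lay on the opposite side of 0 from ATF4 and DDIT3, and it was lower than the median gene.

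CHAC1 degrades glutathione and is another target of ATF4 and CHOP, with the response element shown above. Its retained probe set read 5.52 with the anti-miR and 5.38 in the control, a difference of 0.14. A second probe set was left out as dim at 3.75 and 3.81, and it differed by -0.06. Neither was above the nonspecific range on either array, so CHAC1 is not shown to be above background in either group.

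**Figure D2:**
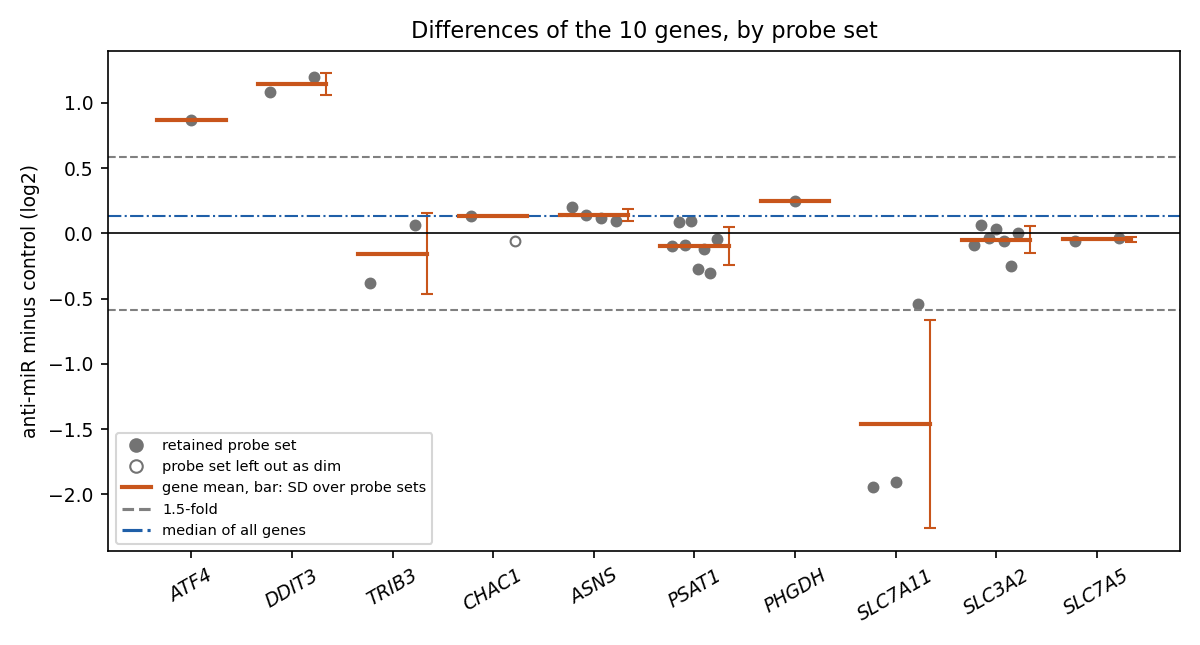
Anti-miR minus control difference (log2) for each member. Points are probe sets, the thick line is the gene mean, the bar is the SD over retained probe sets, dashed lines mark 1.5-fold and the dash-dot line the median of all genes (0.13). ATF4 (0.87) and DDIT3 (1.14) lie above the upper line, SLC7A11 (-1.46) below the lower one, and the other 7 genes between -0.16 and 0.25.

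The enzymes that make amino acids stayed near the median gene. ASNS, asparagine synthetase, is the classical target of the amino acid response and carries the element printed above. Its 4 probe sets read 8.42, 9.04, 8.97 and 8.14 with the anti-miR and 8.22, 8.90, 8.85 and 8.04 in the control. All 4 were above the nonspecific range on both arrays and all were slightly higher with the anti-miR, by 0.10 to 0.20. Averaged over the gene, the difference was 0.14 ± 0.05 (SD over 4 probe sets), or 1.10-fold, and 0.01 once the median gene was subtracted.

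PHGDH catalyses the first step of serine synthesis from glycolytic intermediates. Its single probe set read 8.48 with the anti-miR and 8.23 in the control, a difference of 0.25 or 1.19-fold. Of all genes, 35.5% had a larger increase. With the median gene subtracted PHGDH differed by 0.12.

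PSAT1, the aminotransferase of the following step, was read by 8 probe sets, the most of any member. Their values ran from 6.71 to 9.03 with the anti-miR and from 6.81 to 9.07 in the control. Of these, 2 were higher with the anti-miR, by 0.09 each, and 6 were lower, by 0.04 to 0.30 in size. The gene mean differed by -0.09 ± 0.15 (SD over 8 probe sets), less than the spread between its probe sets. PHGDH and PSAT1, neighbouring steps of one pathway, thus lay on opposite sides of 0 by amounts that these arrays cannot set apart from error.

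The transporters split. SLC7A11, or xCT, is the cystine and glutamate exchanger that supplies cysteine for glutathione, and it was the only member past 1.5-fold in the downward direction. Its 3 probe sets read 6.07, 6.79 and 6.06 with the anti-miR and 8.02, 8.69 and 6.61 in the control. All 3 were lower with the anti-miR. The first was 3.85-fold lower and the second 3.74-fold lower, while the third, dimmer one was 1.46-fold lower and short of the threshold. The gene mean differed by -1.46 ± 0.80 (SD over 3 probe sets), or 2.76-fold. Every anti-miR value, and the third control value, lay within the nonspecific range, so the folds are not exact sizes. With the 2 brighter probe sets alone, as left by a filter at the 75th percentile, the difference was -1.92.

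SLC3A2, the CD98 heavy chain, carries both SLC7A11 and SLC7A5 to the cell surface. Its 7 probe sets read from 8.31 to 9.60 with the anti-miR and from 8.37 to 9.59 in the control, all above the nonspecific range. They differed by -0.25 to 0.06, with 3 above 0 and 4 below. On average SLC3A2 differed by -0.05 ± 0.10 (SD over 7 probe sets). SLC7A5, or LAT1, exchanges large neutral amino acids such as leucine. Its brighter probe set read 10.58 with the anti-miR and 10.61 in the control, and its dimmer one read 6.47 and 6.53. On average SLC7A5 differed by -0.04 ± 0.02 (SD over 2 probe sets). The heavy chain and LAT1 thus each differed by 1.03-fold while the xCT light chain was lower, and with 1 array per group the contrast between these genes could not be tested.

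**Figure D3:**
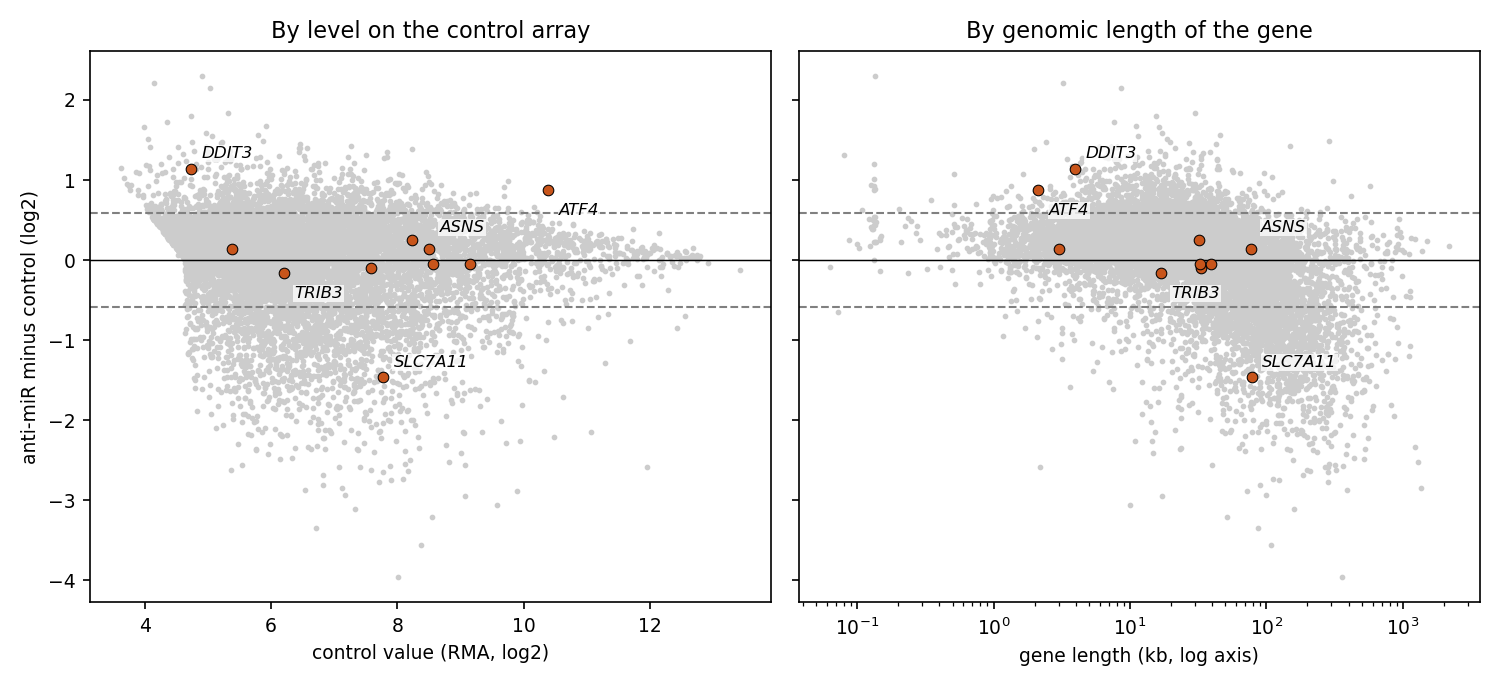
Anti-miR minus control difference (log2) of all 11272 genes (grey) and the 10 members (filled circles, 5 of them named), against the control value (left, log2) and against the gene's genomic length in kb (right, log axis). Dashed lines mark 1.5-fold. ATF4 stands at the upper edge of genes of its level, and SLC7A11 lies within the broad band of lower long genes.

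Gene length moved with the differences on these arrays, and the 3 members past 1.5-fold lie in its shortest and longest classes. Length here is the genomic span in the RefSeq table, by which genes were split into 4 classes of equal size. In the shortest class of genes 12.8% were at least 1.5-fold higher and 1.92% lower, and in the longest class 1.42% were higher and 40.1% lower. ATF4 (2.13 kb) and DDIT3 (3.93 kb) are in the shortest class, where the median difference was 0.26. There 3.76% of genes had a larger increase than ATF4. CHAC1 (3.04 kb) is in the same class, and 70.3% of that class had a larger difference. SLC7A11 (78.3 kb) is near the lower edge of the longest class, which runs from 66.2 kb up, where the median difference was -0.39. In that class 9.27% of genes had a lower difference than SLC7A11. ASNS (76.8 kb), of nearly the same length as SLC7A11, was not lower, and 17.3% of that class had a larger difference. The part of gene length in the values of ATF4, DDIT3 and SLC7A11 was not tested.

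The rest of the pathway was read through 9 lists of other genes, 144 in all, of which 121 were measured. Of these, 8 (6.61%) were at least 1.5-fold higher and 19 (15.7%) at least 1.5-fold lower, shares near those of all genes (8.23% and 14.2%). Their median difference was 0.11, against 0.13 for all genes. The counts of the single lists below are to be read beside the same shares of all genes. In the longest class 12 of 22 were lower, beside 40.1% of all genes of that class. In the other classes, from shortest to longest, 2 of 30, 1 of 36 and 4 of 33 were lower, beside 1.92%, 4.05% and 10.8% of all genes.

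Upstream of ATF4, the 16 genes of eIF2 phosphorylation and its reversal had 1 higher and 3 lower, with a median of 0.06. PPP1R15A, or GADD34, is the stress-induced phosphatase subunit that restores eIF2 and is itself a target of ATF4 and CHOP. It read 7.01 with the anti-miR and 5.97 in the control, a difference of 1.04 or 2.06-fold (1 probe set). Both values lay within the nonspecific range. EIF2AK4, or GCN2, the kinase that senses uncharged tRNA, read 5.59 against 7.73 and differed by -2.13 (1 retained probe set), or by -1.07 with dim probe sets kept. IMPACT, an inhibitor of GCN2 activation, differed by -0.87, with both values (4.88 and 5.75) in the nonspecific range. EIF2AK2, or PKR, the kinase activated by double-stranded RNA, differed by -0.93 ± 0.10 (SD over 2 probe sets), with values of 7.38 and 8.31 above that range. EIF2AK3, or PERK, the kinase of the endoplasmic reticulum, differed by -0.11 ± 0.06 (SD over 2 probe sets). EIF2AK4 (101 kb) is in the longest class and PPP1R15A (3.64 kb) in the shortest.

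Among 9 measured bZIP factors that pair with or resemble ATF4, 1 was higher and 1 lower, with a median of 0.11. CEBPA, a C/EBP factor of differentiation, differed by 0.93 (6.90 against 5.97, 1 probe set), with both values in the nonspecific range. NFE2L2, or NRF2, the regulator of the antioxidant response, differed by -0.80 ± 0.01 (SD over 2 probe sets), with both values above that range. ATF3, a stress factor induced by ATF4, differed by 0.29 ± 0.38 (SD over 3 probe sets), less than the spread between its probe sets. CEBPA (2.60 kb) is in the shortest class of genes and NFE2L2 (34.4 kb) in the second longest.

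Other stress targets of ATF4 had 3 higher and 1 lower of 17 measured, with a median of 0.11. GADD45A, a stress gene that p53 also induces, read 10.48 against 9.68 and was 1.75-fold higher (1 probe set). TXNIP, a thioredoxin inhibitor, differed by 0.67 ± 0.24 (SD over 4 probe sets), and HMOX1, haem oxygenase, by 0.62 (1 probe set). Both genes lay within the nonspecific range, and with dim probe sets kept they were short of the threshold, at 0.57 and 0.37. HMOX1 (4.79 against 4.18) was below the array's median of 4.63 in the control and was retained through its anti-miR value. DDIT4, or REDD1, an inhibitor of mTORC1, differed by -0.76 (7.28 against 8.04, 1 probe set), opposite in sign to ATF4 and DDIT3. GADD45A (3.13 kb), TXNIP (4.1 kb) and DDIT4 (2.11 kb) are in the shortest class, where 12.8% of genes were higher and 1.92% lower. HMOX1 (13.1 kb) is in the next.

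Enzymes of serine, glycine and one-carbon synthesis had 0 higher and 1 lower of 9 measured, with a median of 0.14. PSPH, which completes serine synthesis after PHGDH and PSAT1, differed by 0.49 ± 0.22 (SD over 3 probe sets), short of 1.5-fold. MTHFD1L, a mitochondrial folate enzyme, differed by -0.96 ± 0.72 (SD over 4 probe sets), with probe sets from -1.44 to 0.11. Other amino acid synthesis enzymes had 0 higher and 1 lower of 11 measured, with a median of 0.15. BCAT1, a branched-chain aminotransferase, differed by -1.63 ± 1.61 (SD over 4 probe sets), a spread as large as the difference, with both gene values in the nonspecific range. MTHFD1L (236 kb) and BCAT1 (139 kb) are in the longest class of genes, where 40.1% were lower.

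**Figure D4:**
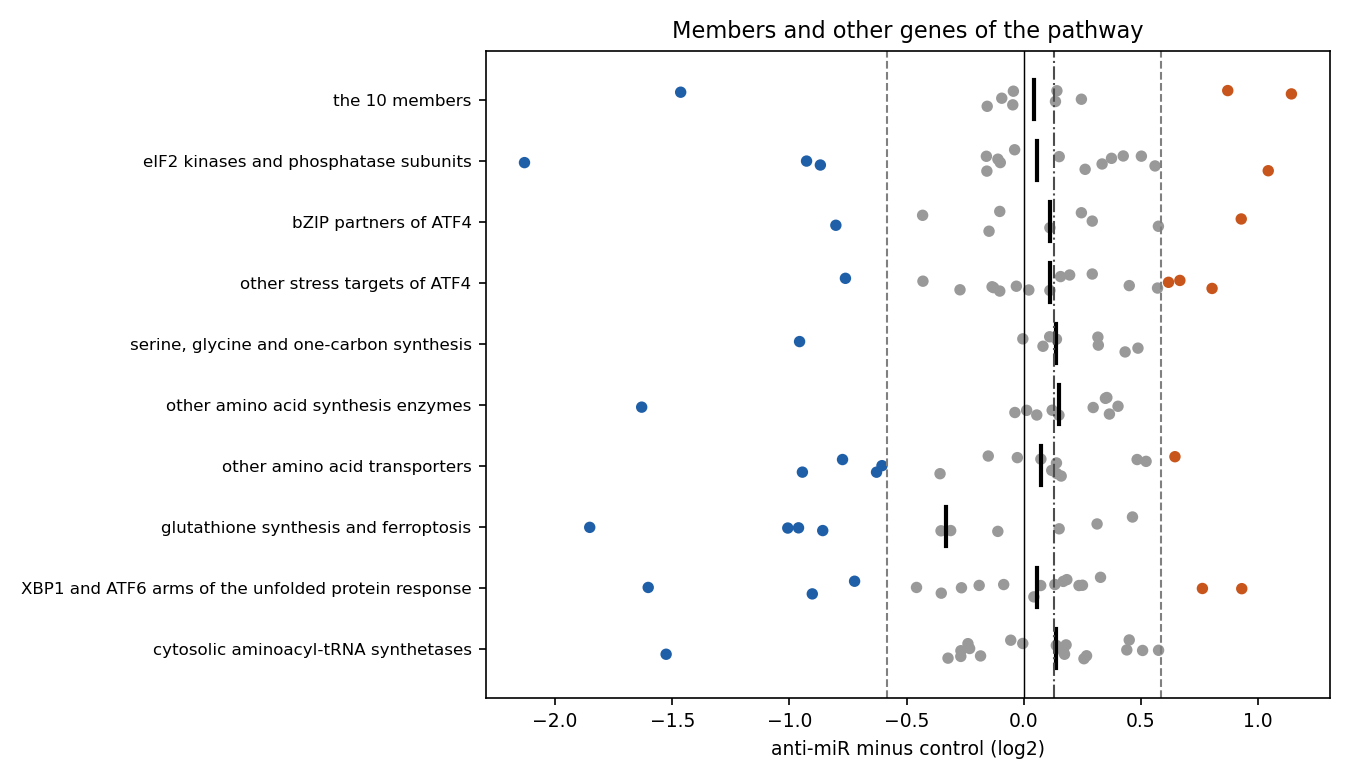
Anti-miR minus control difference (log2) of each measured gene in the 10 members and in 9 other lists of the pathway, 1 point per gene. Short black lines are list medians, dashed lines mark 1.5-fold, the dash-dot line the median of all genes (0.13), and coloured points lie past 1.5-fold. The glutathione list has a median of -0.33, and the other lists have medians between 0.05 and 0.15.

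Other amino acid transporters had 1 higher and 4 lower of 15 measured, with a median of 0.07. Among all genes, 8.23% were at least 1.5-fold higher and 14.2% at least 1.5-fold lower. SLC7A1, a cationic amino acid transporter, differed by -0.94 ± 0.08 (SD over 3 probe sets), or 1.92-fold, from 7.81 in the control. SLC36A4, a proton-independent amino acid carrier, differed by -0.77 ± 0.09 (SD over 2 probe sets). SLC7A2, another cationic transporter, differed by -0.63 ± 0.71 (SD over 2 probe sets), a spread larger than the difference. SLC1A3, a glutamate transporter, differed by 0.65 ± 0.58 (SD over 2 probe sets). With dim probe sets kept SLC7A2 and SLC1A3 were short of the threshold, at -0.42 and 0.43. SLC38A9, a lysosomal amino acid sensor named after its value was seen, differed by -0.61 ± 0.12 (SD over 3 probe sets). All 5 of these genes lay within the nonspecific range on the anti-miR array. SLC7A1 (86.3 kb), SLC7A2 (76.5 kb) and SLC38A9 (86.5 kb) are in the longest class, where 40.1% of all genes were lower. SLC1A3 (91.7 kb), which was higher, is in that class too, and SLC36A4 (53.8 kb) is in the next. The part of length in these values was not tested.

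The genes of glutathione synthesis and ferroptosis had 0 higher and 4 lower of 10 measured. Among all genes 14.2% were lower, and 40.1% in the longest class, which holds 3 of the 4 lower genes. The list's median was -0.33, and 3 of the 10 were above 0. TXNRD1, thioredoxin reductase, differed by -1.85 ± 0.17 (SD over 3 probe sets), or 3.61-fold, from 8.07 in the control to 6.22, within the nonspecific range. CD44, a surface receptor that stabilises xCT, differed by -1.01 ± 0.41 (SD over 10 probe sets). GCLC, the catalytic subunit of the rate-limiting glutathione enzyme, differed by -0.96 ± 0.20 (SD over 3 probe sets), with both values in the nonspecific range. ACSL4, which loads membranes with oxidisable lipids, differed by -0.86 (1 retained probe set), or by -0.59 with dim probe sets kept. SLC7A11, TXNRD1 and GCLC are also known as targets of NRF2, as are GCLM and HMOX1. GCLM, added outside the rule by which list genes were named, differed by -0.11. HMOX1 differed by 0.62 in the other direction, or by 0.37 with dim probe sets kept, and was retained through its anti-miR value. Any part of NRF2 in these values was not tested. TXNRD1 (135 kb), CD44 (93.2 kb) and ACSL4 (91.9 kb) are in the longest class of genes with SLC7A11, and GCLC (47.8 kb) is in the next; the part of length in these values was not tested.

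The XBP1 and ATF6 arms of the unfolded protein response, which run beside the PERK and ATF4 arm, had 2 higher and 3 lower of 18 measured, with a median of 0.06. DNAJB9, a chaperone induced by XBP1, differed by 0.93 ± 0.02 (SD over 2 probe sets), with both gene values in the nonspecific range. HERPUD1, a component of protein degradation at the endoplasmic reticulum, differed by 0.76 ± 0.05 (SD over 3 probe sets), with values of 8.12 and 7.36 above that range. ATF6, the sensor of its arm, differed by -1.60 ± 0.08 (SD over 3 probe sets), and DNAJC3, an inhibitor of eIF2 kinases, by -0.90 ± 0.16 (SD over 3 probe sets), both within the nonspecific range. HSPA5, or BiP, the chaperone that marks this response, differed by -0.72 ± 0.30 (SD over 6 probe sets), with values of 9.32 and 10.04. HSPA5 was named after its value was seen. ATF6 (198 kb) and DNAJC3 (118 kb) are in the longest class of genes, where 40.1% were lower. DNAJB9 (4.98 kb) and HSPA5 (6.49 kb), of opposite sign, are in the shortest class, and HERPUD1 (12.7 kb) is in the next.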

How the data were processed

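The deposited table holds log2 values, 1 for each probe set and array, computed by the authors with RMA according to the submitters' processing notes. The RMA version, the software and the genome build are not stated in those notes as used here. RMA draws the distributions of arrays together, so differences are relative within the array. Of 45253 probe sets with 1 symbol that were not among the 93 array controls, 45172 took their current symbol from the RefSeq table of GRCh38.p14 by Entrez ID.

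Probe sets at or above the median of either array were retained, which left 24127 probe sets and 11272 genes, and all member probe sets are also given. Gene values are means over retained probe sets, and 1.5-fold was the threshold. With 1 array per group no test was run and precision is limited by their number. The gene summary was tested on simulated data with added differences far past the threshold and noise smaller than the real spread over probe sets. That run checks the computation and not the calls made here. Named from each list were up to 4 genes past 1.5-fold, plus ATF3, PSPH, PPP1R15A, EIF2AK3 and EIF2AK4. Where none was past it, the 1 gene with the largest difference in size was named. SLC38A9, HSPA5, FARSA and GCLM were named outside this rule. The members and lists were chosen with earlier results of these data known. Alternatives changed the filter, gene summary, centring, threshold and probe set type. Python 3.11.15, numpy 2.4.6, pandas 2.3.3, statsmodels 0.14.6 and matplotlib 3.10.9 were used.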

Additional observations from a re-analysis of the deposited data

Results flagged for a closer look

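Signals outside the gene comparison were also higher on the anti-miR array. The poly-A controls, bacterial transcripts spiked in before labelling, differed by a mean of 0.32 over 12 probe sets, 11 of them above 0. Background signal rose as well where GC was high: all 11 nonspecific sets from class 15 upward were higher, by a mean of 0.25. The 12 with lower GC differed by a mean of 0.02, and 5 of these were above 0. Any share of this background in rises within the nonspecific range, such as that of DDIT3, was not tested. The differences of ATF4 (0.87), DDIT3 (1.14) and SLC7A11 (-1.46) were larger in size than the poly-A mean. Those of the other 7 members, from -0.16 to 0.25, were smaller. With 1 array per group the poly-A mean is no bound on the error of a gene, and the folds of DDIT3 and SLC7A11 are not exact sizes.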

How the results depend on the processing

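Leaving out an array was not possible with 1 in each group, and no detection call bounds the dim values. No paired analysis was possible because only 1 sample stands in each group. ATF4 kept a difference of 0.74 to 0.87 and DDIT3 of 1.01 to 1.20 under the alternatives that measured them, and all were past 1.5-fold. ATF4 has 1 probe set, so changes of filter or gene summary could not alter its value, and only the centrings could. DDIT3 has 2 probe sets, both retained, so the median and the removal of the filter could not alter its value. DDIT3 was too dim to pass the 75th percentile filter, and plain _at probe sets read neither gene. SLC7A11 was -1.92 with the 75th percentile filter, -1.90 with the brightest probe set or the median, and -1.95 with plain _at probe sets. The count of higher members was 1 with the 75th percentile filter and with a 2-fold threshold, and 0 with plain _at probe sets, which read 2 members, with a median of -0.99. Plain _at probe sets also gave list medians of -2.12 for other amino acid synthesis enzymes (2 genes), 0.099 for glutathione synthesis and ferroptosis (5 genes) and -0.20 for aminoacyl-tRNA synthetases (2 genes); fewer genes were read there. Over all genes, where 928 were higher and 1602 lower, subtracting the median left 499 higher, a lowess trend 547 higher, plain _at probe sets 318 higher and 507 lower, and a 2-fold threshold 139 higher and 787 lower. Both centrings took the members' median below 0, to -0.08, and no called member reversed.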

Other observations

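The cytosolic aminoacyl-tRNA synthetases, which charge tRNAs and several of which are targets of ATF4, had 0 higher and 1 lower of 19 measured, with a median of 0.14 against 0.13 for all genes. FARSB, the beta subunit of the phenylalanine enzyme, differed by -1.53 ± 0.22 (SD over 4 probe sets), with values of 7.50 and 9.03 above the nonspecific range. FARSB (89.2 kb) is in the longest class of genes, where 40.1% were lower. Its partner subunit FARSA differed by 0.58 in the other direction, short of 1.5-fold (1 probe set), and was named after its value was seen. Among the squamous epithelial markers, CDH1, the epithelial cadherin, differed by -0.54 (1 retained probe set), and by -0.22 with dim probe sets kept. With either centring, 1 squamous marker was past 1.5-fold in the downward direction. VWF, an endothelial gene, differed by 0.42, and by 0.26 with dim probe sets kept, and both its values (5.11 and 4.69) lay in the nonspecific range.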
